A study of Mus musculus with 8 samples.

Results

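The 41 genes described here encode the machinery that copies DNA once in each cell cycle: the factors that license origins, the MCM helicase and its activators, the polymerases, the sliding clamp and its loader, the factors that finish the lagging strand, the enzymes that supply nucleotides, and Uhrf1. They were chosen by symbol from a fixed list. All 41 were found among the 24537 genes of the deposited count table, and all 41 passed the filter on low counts that left 14728 genes to be tested. RNA came from EpCAM+ cells, an epithelial surface marker, sorted by flow cytometry from 8 mouse pancreatic tumours that were dissected individually, on the FVB/NJ background, from animals 44 to 49 days of age. All 8 mice carried Trp53f/f (both copies of the tumour suppressor gene p53 floxed, that is, removable by Cre recombinase), Rosa26LSL-Luc (a luciferase reporter) and Pdx1-Cre, in which Cre is driven by the promoter of the pancreatic gene Pdx1. The 4 tumours labelled KO were Lifrf/f, with both copies of the leukaemia inhibitory factor receptor gene floxed. Of the 4 labelled WT, replicates 1 and 2 were Lifrf/+ and replicates 3 and 4 were Lifr+/+. The comparison asks how expression of the replication genes differed between the tumours labelled KO and those labelled WT.

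The count total of a tumour lay between 14938875 and 22698340, and a replication gene had between 46 and 2462 counts in a tumour. Lifr itself did not follow the label: its CPM (gene counts scaled to a common library size, with TMM factors) was 149.8 to 219.7 among tumours labelled KO but 71.8 to 126 among those labelled WT, a log2 difference of 0.90 ± 0.19 (SE, adjusted p = 0.0121). The labels do not say which exon is floxed, so a sum over all exons does not test the deletion, and every direction below is between groups as labelled. Cell markers also differed between the labelled groups. Of 20 epithelial markers 14 were called lower in the tumours labelled KO, with a summed CPM of 4049 to 5578 against 7480.2 to 10066, and Epcam itself was at 360.3 to 499 against 660.3 to 890.4. Of 16 macrophage markers 14 were called higher (23094 to 29855 against 9028 to 15847), and of 12 general leukocyte markers 11 were called higher (4323 to 5092 against 1978 to 3050.2). Of all tested genes 11.1% were called higher and 10.8% lower. Without both KO replicate 1 and WT replicate 2, 10 epithelial markers were called lower, and 8 macrophage and 11 leukocyte markers higher. These counts were 11, 13 and 10 with only Lifrf/+ controls, and 5, 5 and 8 with only Lifr+/+ controls. Calls also fell over the whole table in these fits. The shares of all genes called higher and lower were 6.33% and 6.58% without KO replicate 1 and WT replicate 2. They were 6.75% and 6.01% with only Lifrf/+ controls, and 3.41% and 3.93% with only Lifr+/+ controls. Of 10 acinar markers 0 were called by edgeR, with 3 at an unadjusted p under 0.05 and 2 called by DESeq2, at 1709.7 to 35653 against 406 to 7708, and 8 were called higher without WT replicate 2. Of the markers of other cells, edgeR called 1 of 6 tested neutrophil genes higher (DESeq2 1) and 1 of 10 fibroblast genes higher (DESeq2 3; 4 without WT replicate 4 and 0 without KO replicate 1, 2 or 4 or WT replicate 1 or 3). It called 0 of 7 endocrine genes (3 at an unadjusted p under 0.05; DESeq2 2 higher, and edgeR 2 higher without KO replicate 4, 1 lower without WT replicate 2 or with only Lifr+/+ controls and 2 lower without both KO replicate 1 and WT replicate 2). Of 6 endothelial genes 0 were called (0 at an unadjusted p under 0.05; DESeq2 1 of 8 lower, and edgeR 1 of 8 lower without WT replicate 2). Of 7 T and NK cell and 6 B and plasma cell genes edgeR and DESeq2 called 0, with 1 in each at an unadjusted p under 0.05, and edgeR called 1 T and NK cell gene higher without WT replicate 2 or with only Lifr+/+ controls. No marker found in the table was at 0 in all 8 tumours. The part of these differences in the replication gene values was not tested, and in sorted bulk RNA more cells of a type and more RNA per cell cannot be told apart.

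Replication starts at origins. In G1 the origin recognition complex, with Cdc6 and Cdt1, loads the MCM ring, built of the subunits Mcm2 to Mcm7, onto DNA. In S phase Cdc45 and the GINS complex turn the ring into the moving CMG helicase, with Mcm10 assisting. Primase and polymerase alpha lay down primers, the clamp Pcna is loaded by replication factor C, polymerases delta and epsilon extend the strands, replication protein A covers single-stranded DNA, and Fen1 and Lig1 process and join Okazaki fragments. Ribonucleotide reductase (Rrm1 with Rrm2) and thymidylate synthase (Tyms) supply deoxynucleotides. Many of these genes are known targets of E2F transcription factors, which drive entry into S phase, and they are expressed mainly in dividing cells.

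Short words that E2F factors are known to bind were frequent near the start sites of the replication genes. Promoters from RefSeq (build GRCm38.p6), from 250 bases before to 50 bases after the start, were found for 34 of the 41 genes. The words TTTCCCGC, TTTGGCGC, TTTGCCGC and TTTCGCGC were searched on both strands. At least 1 of them was present in 15 of the 34 genes, or 44.1%, against 2.61% of all 27025 genes with a promoter in the table and 4.38% of the 11197 tested genes with one. Among the 10 replication genes called higher in the tumours labelled KO 5 held a word, and among the 24 not called 10 did. A match describes letters and not a bound site. The stretches around the words are printed for 4 of those 5 called genes, whose matches lie outside annotated exons, and for Cdc6, a licensing gene that was not called. Each is written 5′ to 3′ along the gene's strand, and capitals mark the E2F words, with 2 overlapping words run together in Mcm5 and in Mcm6.
Mcm5: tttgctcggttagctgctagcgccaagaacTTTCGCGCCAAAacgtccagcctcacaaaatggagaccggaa
Mcm6: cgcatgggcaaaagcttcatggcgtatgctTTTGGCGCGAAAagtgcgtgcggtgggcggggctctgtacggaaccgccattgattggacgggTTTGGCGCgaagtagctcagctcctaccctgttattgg
Pola1: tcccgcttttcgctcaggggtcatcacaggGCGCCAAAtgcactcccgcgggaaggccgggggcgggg
Uhrf1: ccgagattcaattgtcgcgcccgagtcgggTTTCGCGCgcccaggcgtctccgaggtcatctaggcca
Cdc6: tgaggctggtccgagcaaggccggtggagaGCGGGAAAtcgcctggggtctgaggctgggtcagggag
The Mcm5 stretch is at chr8:75109326-75109397 on the plus strand, and its words begin 153 and 149 bases before the start. The Mcm6 stretch, at chr1:128359715-128359845 on the minus strand, holds 3 words that begin 110, 106 and 47 bases before the start. The single words begin 138 bases before the start in Pola1 (chrX:93632256-93632323, minus strand), 185 in Uhrf1 (chr17:56304098-56304165, plus strand) and 138 in Cdc6 (chr11:98907983-98908050, plus strand). The Uhrf1 and Cdc6 stretches lie inside the annotated gene but in no annotated exon of it, downstream of another annotated start. Mcm3, the remaining called gene with a word, has its matches after the start site, in transcribed sequence that is not printed.

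Of the 41 replication genes, 10 were called higher in the tumours labelled KO (24.4%) and 0 were called lower, at an adjusted p under 0.05 from edgeR's quasi-likelihood test with Benjamini-Hochberg adjustment over all tested genes. Of all 14728 tested genes 11.1% were called higher and 10.8% lower. The SE was under 0.1 for 39.0% of the 41 genes and for 24.4% of all tested genes, and smaller differences can be called where the SE is small. The part of this in the shares called was not tested. The 10 were Mcm2, Mcm3, Mcm5, Mcm6, Mcm10, Pola1, Rfc1, Rpa1, Fen1 and Uhrf1, and their folds were small, from 1.21 to 1.64. At an unadjusted p under 0.05, 16 were higher (39.0%, against 18.4% of all genes) and 0 lower (against 17.6%). In 11 genes every tumour labelled KO was above every tumour labelled WT (26.8%, against 13.1% of all tested genes), and in 0 the reverse (against 12.3%). The median log2 difference was 0.23 over the 41 genes and 0.01 over all genes. The estimate was above 0 for 34 of the 41 (82.9%, against 51.4% of all genes) and below 0 for 7. Scaled by library totals alone 17 of the 41 were below 0, and scaled to the epithelial markers 0 were. The plot of centred values by tumour shows the spread of the single genes.

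**Figure D1:**
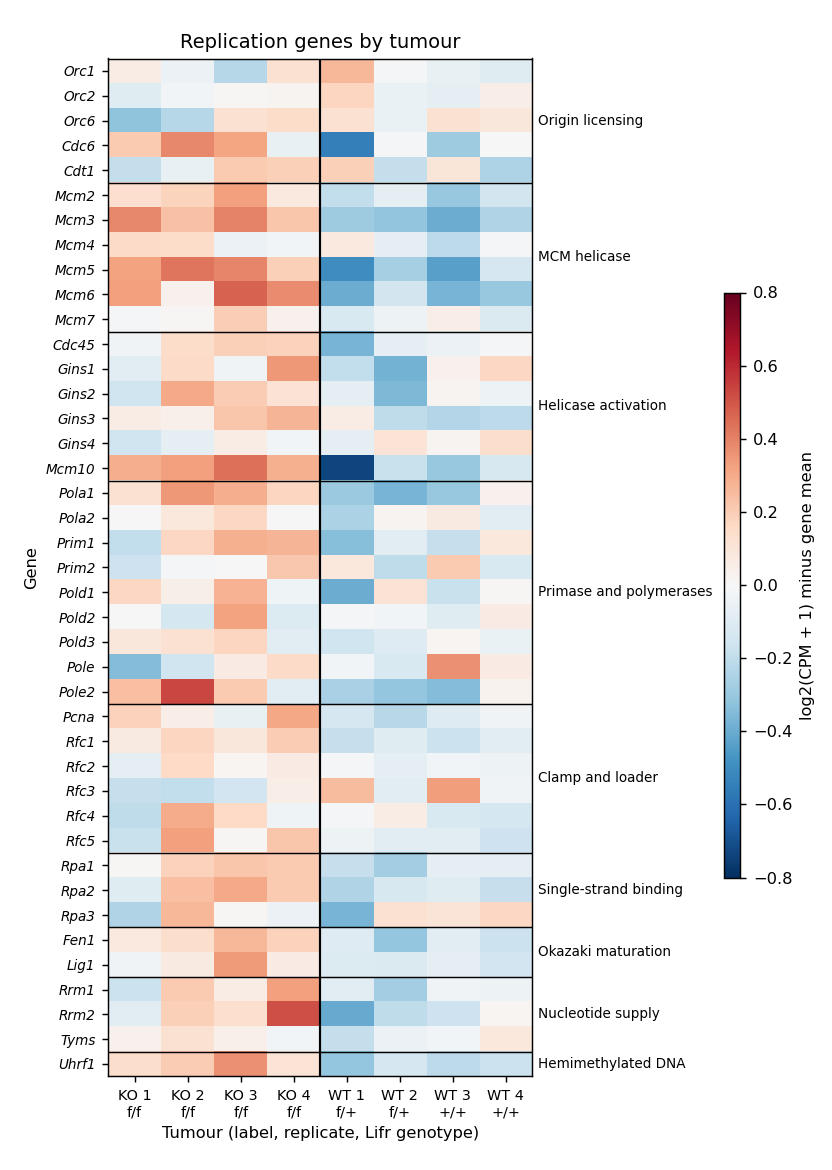
Heat map of the 41 replication genes (rows, grouped by role) in the 8 tumours (columns, with the Lifr genotype), as log2(CPM + 1) minus the gene's mean over the tumours. KO replicates 2, 3 and 4 are above the gene mean for 32, 35 and 30 of the 41 genes (red) and KO replicate 1 for 19, while the 4 columns labelled WT are mostly below it (blue), above it for 5 to 14 genes.

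The count of 10 rested in part on single tumours and on the scaling. Without KO replicate 2 it was 6, and the calls of Pola1 (adjusted p = 0.0561), Rfc1 (0.0548), Rpa1 (0.0638) and Fen1 (0.0501) were lost. Calls also fell over the whole table, with 6.14% of all genes called higher without that tumour and 11.1% with all tumours. With library totals alone, which moved the median of all genes to −0.17, 22.5% of all calls were higher (50.7% with TMM scaling), and 4 replication genes were called higher (Mcm3, Mcm5, Mcm6 and Mcm10) and 1 lower (Rfc3, −0.43). Of all genes 6.11% were then called higher and 21.1% lower. The median of the 41 stood 0.22 above the median of all genes with TMM scaling and 0.22 with library totals. Tumours labelled KO had TMM factors of 0.890 to 0.965, and the controls 1.05 to 1.10. Scaled to the epithelial markers, 73.6% of all genes and all 41 replication genes were called higher.

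Within the 8 tumours the replication genes took a summed CPM of 1277, 1350.5, 1407 and 1368 in the tumours labelled KO and 1103, 1102, 1131 and 1158 in those labelled WT. The groups did not overlap on that scale. As an unscaled share of counted reads they did, at 0.114% to 0.136% against 0.116% to 0.121%. KO replicate 3 had the highest value of all 8 tumours for 17 of the 41 genes, KO replicate 2 for 10, KO replicate 4 for 8 and KO replicate 1 for 1. WT replicate 1 had the lowest value for 16, WT replicate 2 for 9, KO replicate 1 for 6 and WT replicate 3 for 5. KO replicate 2 and WT replicate 4 had it for 2 each, KO replicate 3 for 1 and KO replicate 4 for 0.

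None of the 5 licensing genes was called in either direction, where 11.1% of all tested genes were called higher and 10.8% lower. Cdc6, the ATPase that recruits MCM rings to origins, had the smallest p among them, with CPM of 8.77, 10.02, 9.51 and 7.12 in KO replicates 1 to 4 and 4.79, 7.36, 5.96 and 7.48 in WT replicates 1 to 4. In 3 of the tumours labelled KO the level was above that of all 4 labelled WT, and KO replicate 4 lay among the latter. The log2 difference was 0.47 ± 0.19 (95% interval 0.04 to 0.89, adjusted p = 0.10997). Orc1, the largest subunit of the origin recognition complex, had 4.11, 3.75, 3.19 and 4.35 against 4.90, 3.87, 3.72 and 3.59. Its groups overlapped throughout, and the highest value was in WT replicate 1 (log2 difference −0.06, interval −0.48 to 0.36, adjusted p = 0.848). Orc2 and Orc6, the other subunits of that complex on the list, had log2 differences of −0.05 (−0.23 to 0.13) and −0.14 (−0.44 to 0.17). Cdt1, the loading partner of Cdc6, stood at 0.07 (−0.25 to 0.40), so a rise of the size seen in Mcm3 lies outside the intervals of Orc1, Orc2, Orc6 and Cdt1 and inside that of Cdc6.

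Of the 6 subunits of the MCM ring 4 were called higher (66.7%, against 11.1% of all tested genes). These were Mcm2, Mcm3, Mcm5 and Mcm6 (the last 3 also with library totals alone), and their groups did not overlap. Mcm4 and Mcm7 were not called. Mcm3 (chr1:20803014-20820213, minus strand, mm10 as deposited) had CPM of 122, 110.1, 123 and 109 in the tumours labelled KO and 76.5, 74.7, 70.5 and 78.8 in those labelled WT. All 4 tumours labelled KO were well above the highest labelled WT, giving a log2 difference of 0.63 ± 0.07 (1.54-fold, adjusted p = 0.00440). Mcm5 (chr8:75109509-75128439, plus strand) had 55.1, 59.3, 57.8 and 50.04 against 30.7, 36.3, 32.1 and 39.9. WT replicate 4 was the closest to the other group, and the log2 difference was 0.68 ± 0.10 (adjusted p = 0.00490). Mcm6 (chr1:128331575-128359705, minus strand) had 85.1, 69.1, 93.9 and 88.2 against 50.9, 61.0, 51.9 and 54.5. KO replicate 2 was the lowest of its group and WT replicate 2 the highest of the other, with no overlap (log2 difference 0.62 ± 0.11, adjusted p = 0.00689). Mcm2 (chr6:88883474-88898780, minus strand) had 57.3, 58.9, 65.4 and 54.9 against 45.2, 49.5, 42.0 and 47.0. Its difference was smaller, 0.36 ± 0.08 (1.29-fold, adjusted p = 0.0159), with no overlap. Mcm4 (chr16:15623897-15637400, minus strand), part of the catalytic core of the ring, had 88.8, 88.6, 77.5 and 78.6 against 84.3, 75.7, 68.8 and 79.0. WT replicate 1 exceeded KO replicates 3 and 4, so the groups overlapped (log2 difference 0.12, interval −0.08 to 0.31, adjusted p = 0.362). Mcm7 (chr5:138164589-138171862, minus strand) was at 36.6 to 42.5 against 33.9 to 38.4, also overlapping (log2 difference 0.12, interval −0.06 to 0.30, adjusted p = 0.322), and both of these estimates fell just below 0 (−0.06 each) with library totals alone. The annotated Mcm7 gene reaches 138172422 and overlaps the 5′ part of Ap4m1, which starts at 138172002 on the other strand. The counted Mcm7 transcript ends before that start. No source used here states whether the libraries kept strand. Mcm3, Mcm5 and Mcm6 were called under all 20 other settings tried.

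**Figure D2:**
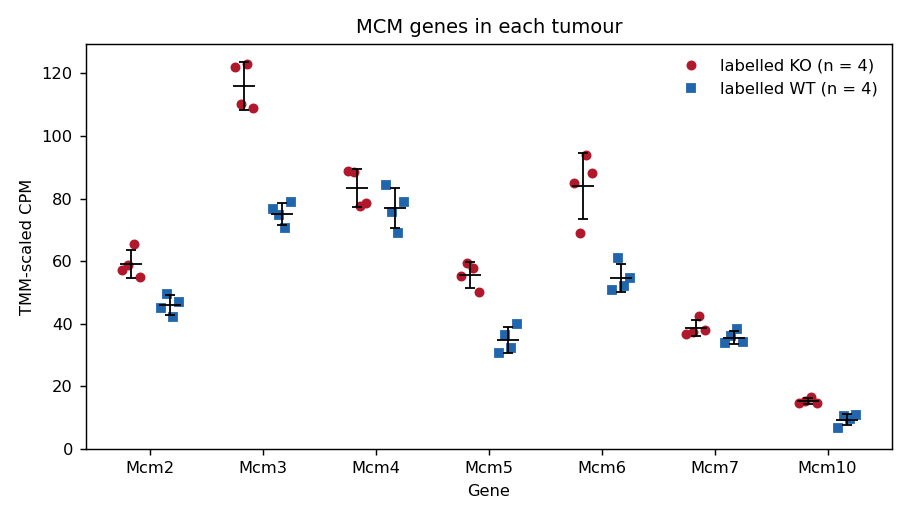
TMM-scaled CPM of Mcm2 to Mcm7 and Mcm10 in each tumour (points), with the group mean and SD (bars), 4 tumours per group. Red and blue points are apart for Mcm2, Mcm3, Mcm5, Mcm6 and Mcm10 and mixed for Mcm4 and Mcm7.

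Ratios of raw counts between subunits within a tumour do not depend on scaling, and all 15 pairs were compared after the values above had been seen. The Mcm3 to Mcm4 ratio was 1.24 to 1.59 for tumours labelled KO and 0.908 to 1.02 for the controls, 1.42-fold higher. Mcm5 to Mcm4 was 0.620 to 0.746 against 0.365 to 0.505 (1.48-fold) and Mcm6 to Mcm7 was 1.85 to 2.32 against 1.35 to 1.69 (1.41-fold). Each of these 3 ratios was higher in every tumour labelled KO than in any labelled WT. By contrast Mcm7 to Mcm4 was 0.412 to 0.548 against 0.402 to 0.557 and Mcm5 to Mcm3 was 0.452 to 0.539 against 0.402 to 0.506, with overlapping groups. Of the 8 pairs of a called with an uncalled subunit, 6 did not overlap, while Mcm2 to Mcm4 and Mcm6 to Mcm4 did. Of the 7 other pairs 2 did not overlap, Mcm3 to Mcm2 and Mcm5 to Mcm2, both of called subunits. The subunits were sorted into called and uncalled by the same libraries, so these counts are no separate support for that split. Ratios between other genes were not computed for comparison. Of the 15 pairs 8 did not overlap and reached p = 0.0286, the smallest that an exact two-sided permutation test of 4 against 4 tumours allows. After Benjamini-Hochberg adjustment over the 15 pairs their p was 0.0536, so none passed 0.05.

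**Figure D3:**
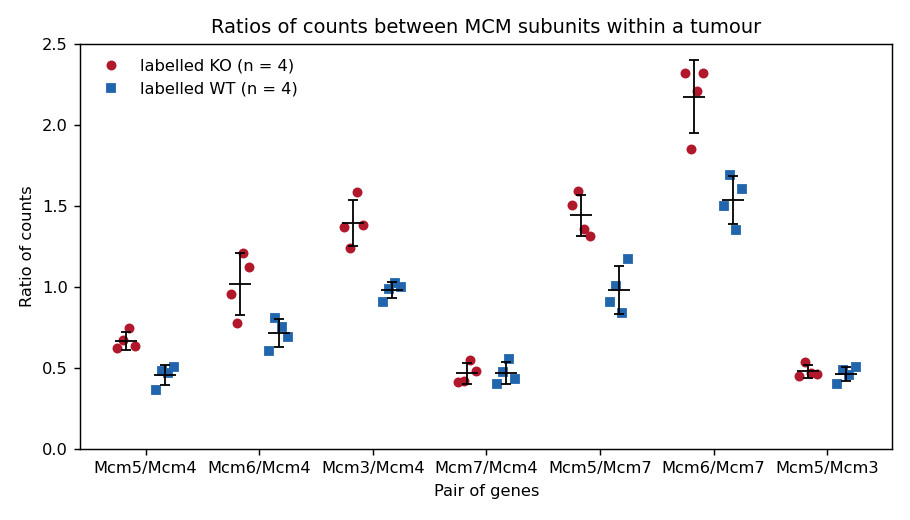
Ratio of raw counts of 2 MCM subunits within each tumour (points) for 7 of the 15 pairs, with the mean and SD of the 4 tumours of each label (bars). The ratios of Mcm5 and Mcm3 to Mcm4 and of Mcm5 and Mcm6 to Mcm7 are apart between the groups, and those of Mcm6 to Mcm4, Mcm7 to Mcm4 and Mcm5 to Mcm3 overlap.

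Among the helicase activators 1 of 6 was called higher (16.7%, against 11.1% of all tested genes). Mcm10 (chr2:4990724-5012344, minus strand), which binds the CMG helicase and polymerase alpha, had CPM of 14.7, 15.1, 16.5 and 14.7 against 6.72, 10.3, 9.41 and 10.8. The tumours labelled KO lay close together and WT replicate 1 was far the lowest of the 8, and the log2 difference of 0.71 ± 0.16 (1.64-fold, adjusted p = 0.0150) had the highest estimate of the 41 genes. Gins1, a GINS subunit, had 6.34, 7.70, 6.67 and 8.94 against 5.83, 5.03, 7.04 and 7.78, with mixed groups (log2 difference 0.21, interval −0.22 to 0.64, adjusted p = 0.461). Cdc45, the third component of the CMG helicase, stood at 0.26 (−0.02 to 0.55, adjusted p = 0.166). The other GINS subunits were at 0.25 for Gins2 (−0.09 to 0.59), 0.35 for Gins3 (−0.01 to 0.72) and −0.11 for Gins4 (−0.30 to 0.09), none called.

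Of the 9 primase and polymerase genes 1 was called higher, a share of 11.1% that is the same as that of all tested genes (11.1%). Pola1 (chrX:93304766-93632155, minus strand), the catalytic subunit of polymerase alpha, had CPM of 31.7, 37.2, 35.8 and 32.9 against 23.4, 22.2, 23.4 and 29.8. WT replicate 4 stood apart from the other three of its group and just under the lowest tumour labelled KO, and the log2 difference was 0.48 ± 0.11 (1.39-fold, adjusted p = 0.0177). Prim2, the large primase subunit, had 16.5, 18.5, 18.6 and 21.8 against 19.8, 16.1, 21.7 and 17.03. Its groups covered the same range (log2 difference 0.01, interval −0.28 to 0.31). Pole2, the second subunit of polymerase epsilon, had an estimate as large as Pola1, 0.51 ± 0.18, but was not called (adjusted p = 0.0733), at 7.68 to 12.4 against 6.28 to 8.42; DESeq2 called it (adjusted p = 0.0365). Pole, the catalytic subunit of the same enzyme, had an estimate of −0.15 (−0.47 to 0.18). The remaining estimates were 0.12 for Pola2, 0.29 for Prim1 (the catalytic primase subunit) and, for the polymerase delta genes, 0.23 (Pold1, catalytic), 0.05 (Pold2) and 0.15 (Pold3), none called.

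In the clamp and clamp loader 1 of 6 genes was called higher (16.7%, against 11.1% of all tested genes). Rfc1 (chr5:65261852-65335639, minus strand), the large subunit of the loader, had CPM of 64.7, 69.4, 65.4 and 70.8 against 54.0, 57.5, 54.4 and 58.0. Both groups were tight and did not overlap, and the gene was called at a 1.21-fold difference (log2 difference 0.27 ± 0.06, adjusted p = 0.0176). Pcna (chr2:132249286-132253180, minus strand), the clamp, had 45.0, 40.9, 37.8 and 49.2 against 35.9, 33.7, 36.6 and 38.7. KO replicate 3 was below WT replicate 4 and the difference was not called (log2 difference 0.26 ± 0.10, interval 0.04 to 0.47, adjusted p = 0.0907). Rfc4, a small loader subunit, had 7.38, 10.8, 9.79 and 8.43 against 8.54, 9.08, 7.89 and 7.78, with KO replicate 1 the lowest of all 8 (log2 difference 0.13, adjusted p = 0.581). The loader subunits differed in sign: Rfc2 was at 0.09 and Rfc5 at 0.21, while Rfc3 had the lowest estimate of the 41 genes, −0.26 ± 0.13 (adjusted p = 0.177), at 16.0 to 19.3 against 17.4 to 23.6. Rfc2, Rfc3 and Rfc5 were not called with TMM scaling.

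Of the 3 subunits of replication protein A 1 was called higher (33.3%, against 11.1% of all tested genes). Rpa1 (chr11:75300259-75348383, minus strand), the large subunit that carries most of the DNA binding, had CPM of 59.4, 67.1, 68.9 and 68.4 against 51.9, 48.5, 55.8 and 55.8, without overlap (log2 difference 0.31 ± 0.08, 1.24-fold, adjusted p = 0.0230). Rpa2, the middle subunit, was similar in size but not called (0.35 ± 0.12, adjusted p = 0.0590; DESeq2 0.0320). Rpa3, the small subunit, had 6.14, 9.14, 7.499 and 7.16 against 5.52, 8.20, 8.07 and 8.48. Its groups overlapped, with WT replicate 1 the lowest of all (log2 difference −0.02, interval −0.45 to 0.41).

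Both Okazaki fragment genes had groups that did not overlap, with KO higher, as had 13.1% of all tested genes. Of the pair 1 was called higher, as were 11.1% of all tested genes. Fen1 (chr19:10199132-10203943, minus strand), the flap endonuclease that trims Okazaki fragments, had CPM of 32.6, 34.1, 37.3 and 35.2 against 28.7, 24.6, 29.0 and 27.2 (log2 difference 0.35 ± 0.08, 1.27-fold, adjusted p = 0.0195). Lig1 (chr7:13278826-13311427, plus strand), the ligase that seals them, had 41.6, 44.7, 53.9 and 44.4 against 39.3, 39.0, 40.1 and 38.1. KO replicate 3 stood above the rest of its group and KO replicate 1 was close to the highest tumour labelled WT, and the difference of 0.24 ± 0.09 was not called (adjusted p = 0.0907).

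None of the 3 nucleotide supply genes was called, where 11.1% of all tested genes were called higher and 10.8% lower. Rrm2 (chr12:24708254-24714146, plus strand), the subunit of ribonucleotide reductase whose amount is known to follow S phase, had CPM of 24.5, 29.7, 28.6 and 37.5 against 19.4, 22.4, 23.0 and 26.3. KO replicate 4 was far the highest and KO replicate 1 lay below WT replicate 4, and the log2 difference was 0.40 ± 0.14 (interval 0.07 to 0.73, adjusted p = 0.0804). Rrm1, the large subunit, stood at 0.23 (interval −0.03 to 0.49, adjusted p = 0.192). Tyms had 16.4, 17.5, 16.5 and 15.7 against 13.9, 15.4, 15.7 and 17.03, overlapping (log2 difference 0.09, interval −0.13 to 0.31), but its deposited row was counted over a non-coding transcript of the gene. Summed over the 3 genes, KO replicate 1 had a CPM of 111, inside the range of the tumours labelled WT (103 to 119.7), and the other three labelled KO had 127 to 152. For the 6 MCM genes KO replicate 1 had 445, within the range of its own group (419 to 460.1) and above that of the tumours labelled WT (304 to 333). KO replicate 1 also had the highest acinar marker sum, 35653, and WT replicate 2 the highest of its group, 7708. Without both, 9 replication genes were called higher and 0 lower, while 6.33% of all genes were called higher and 6.58% lower.

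Uhrf1 (chr17:56303337-56323486, plus strand), which reads hemimethylated DNA behind the fork and recruits the maintenance methyltransferase Dnmt1, had CPM of 31.7, 33.1, 37.2 and 31.0 against 23.0, 26.0, 24.7 and 25.3. All 4 tumours labelled KO were above all labelled WT (log2 difference 0.43 ± 0.08, 1.34-fold, adjusted p = 0.0106). Dnmt1 itself, which is not among the 41, had 121 ± 6.94 against 98.3 ± 7.35 (SD, n = 4 each; log2 difference 0.29, edgeR adjusted p = 0.0270).

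**Figure D4:**
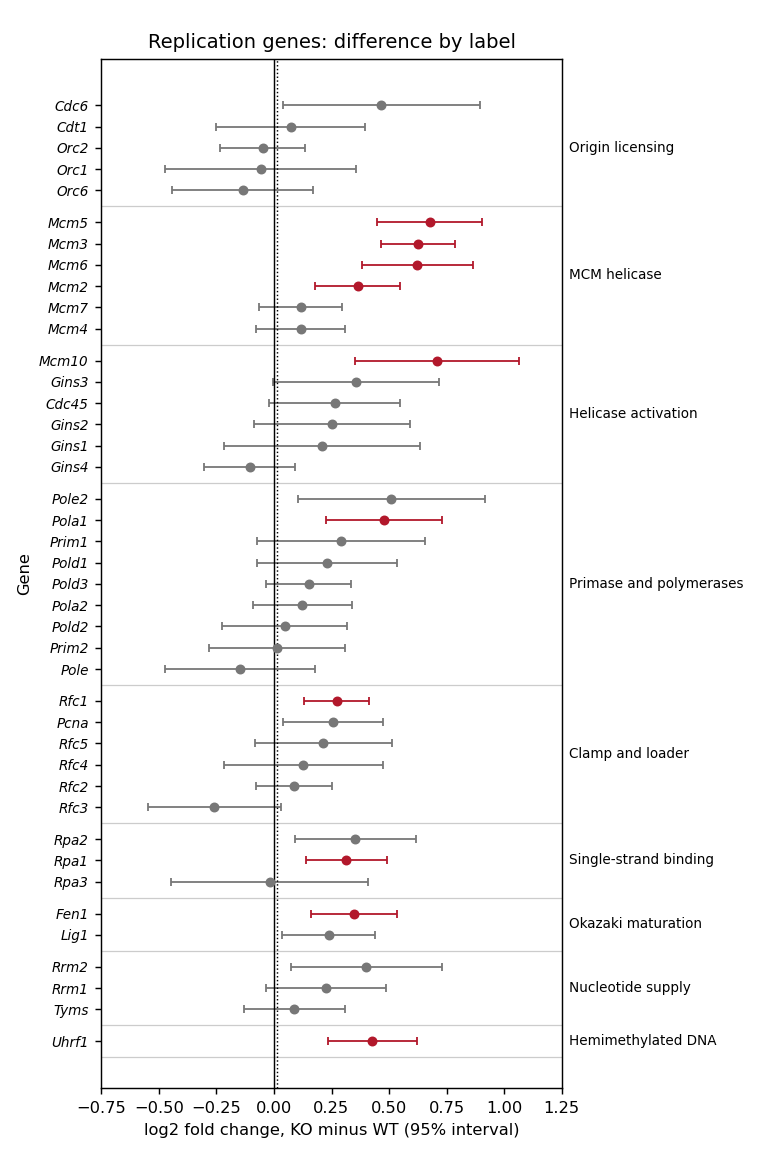
Log2 difference between tumours labelled KO and WT for the 41 genes by role, with 95% intervals from the edgeR fit (bars) and the median of all tested genes (dotted line, 0.01). Red points are the 10 genes called at an adjusted p under 0.05, from Rfc1 (0.27) to Mcm10 (0.71), and the lowest estimate is that of Rfc3 (−0.26).

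Between genes, levels were compared per transcript length, in the deposited FPKM. Mcm3 had the highest mean over the 8 tumours (18.3, range 14.3 to 23.4), followed by Pcna (17.6, 16.4 to 20.6), Rfc2 (14.3), Mcm6 (12.8) and Mcm4 (12.5). The lowest were Orc1 (0.732, range 0.581 to 0.940), Cdc6 (0.933), Gins3 (1.13) and Mcm10 (1.94). The ranges of Mcm3 and Pcna overlapped, as did those of Orc1 and Cdc6. Counted from the highest mean of the 41, Mcm3 ranked 1, Mcm6 4, Rpa1 7, Mcm2 10.5 (a tie), Fen1 12, Rfc1 14 and Mcm5 15. The other called genes were lower, with Uhrf1 at 27, Pola1 at 35 and Mcm10 at 38. The kept transcript was the same in the count and FPKM tables for 34 of the 41 genes.

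The control tumours were compared with each other because they differed in genotype. Between the 2 Lifrf/+ and 2 Lifr+/+ tumours edgeR called 0 of the 41 genes in either direction, against 0.00654% of 15284 tested genes. At an unadjusted edgeR p under 0.05 there were 0 of the 41, beside 782 of the 15284. DESeq2 also called 0 of the 41, beside 54 of 19585 genes. The median log2 difference was −0.07. For Mcm3 the difference between the tumours labelled KO and the Lifrf/+ tumours was 0.62 and against the Lifr+/+ tumours 0.64, values that share the libraries labelled KO. Side by side, these were 0.73 and 0.63 for Mcm5, 0.59 and 0.66 for Mcm6, 0.84 and 0.60 for Mcm10, 0.59 and 0.37 for Pola1 and 0.53 and 0.29 for Rrm2. With only the Lifrf/+ controls 6 of the 41 were called higher (Mcm3, Mcm5, Mcm6, Mcm10, Pola1 and Rpa1), beside 6.75% of all genes. With only the Lifr+/+ controls 3 were called higher (Mcm3, Mcm5 and Mcm6), beside 3.41% of all genes. Calls were thus fewer over the whole table too, and both fits have fewer tumours.

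Other genes of the replication cycle were read from further lists. Of 15 origin control genes 0 were called in either direction by edgeR (median log2 difference 0.18), where 11.1% of all tested genes were called higher and 10.8% lower. At an unadjusted p under 0.05 there were 3 of the 15, where 18.4% of all tested genes were higher and 17.6% lower. The smallest p-values among the 15 were for Orc5 (0.22, adjusted p = 0.113), another origin recognition subunit, and Fbxo5 (0.36, adjusted p = 0.117), the inhibitor of the anaphase-promoting complex. Of 23 fork and chromatin genes 4 were called higher (17.4%, against 11.1% of all tested genes) and 0 lower (median 0.23): Dnmt1, the histone chaperone Asf1b (0.41 ± 0.12), the checkpoint mediator Clspn (0.44 ± 0.13) and the PCNA-associated factor Pclaf (0.54 ± 0.16). That count fell to between 0 and 2 when any single tumour was left out, and with library totals alone 0 were called higher and 1 lower. Of 15 genes of deoxynucleotide metabolism 2 were called higher and 0 lower, a share of 13.3% that is near the 11.1% of all tested genes. Samhd1, which degrades deoxynucleotides, had 343 to 463 against 156 to 206 CPM (log2 difference 1.02 ± 0.13, adjusted p = 0.00440), and Dck, the salvage kinase for deoxycytidine, had 46.2 to 62.8 against 30.7 to 38.1 (0.60 ± 0.12, adjusted p = 0.00952).

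Of 18 genes that control E2F activity and the step from G1 to S phase 4 were called higher (22.2%, against 11.1% of all tested genes) and 1 lower (median 0.16). With only Lifrf/+ controls 3 were called higher (6.75% of all genes were) and with only Lifr+/+ controls 1 (3.41% of all genes). E2f1, an activating E2F factor, had 23.9 to 29.6 against 16.0 to 20.5 CPM (0.55 ± 0.11, adjusted p = 0.0117), and Ccna2, the S phase and G2 cyclin, had 37.5 to 57.5 against 33.6 to 34.7 (0.56 ± 0.13). The other genes called higher are known to restrain E2F factors: Rb1 (0.56 ± 0.10, adjusted p = 0.00720) and its relative Rbl1 (0.47 ± 0.09). E2f5, a repressive E2F factor, was the gene called lower (−0.34 ± 0.08, adjusted p = 0.0202) and was named after its value was seen. No gene of the list was called lower without KO replicate 1, KO replicate 2 or WT replicate 3, without both KO replicate 1 and WT replicate 2, or with either control genotype alone. Of 21 mitosis genes 10 were called higher (47.6%, against 11.1% of all tested genes) and 0 lower (median 0.50). Under other settings the count is given with the share of all genes called higher. It was 5 without KO replicate 2 (6.14%), 5 without WT replicate 3 (7.26%), 16 without KO replicate 1 (7.78%) and 4 with library totals alone (6.11%). With only Lifrf/+ controls it was 3 (6.75%) and with only Lifr+/+ controls 0 (3.41%), while the list median was 0.50 in both. Mki67, the proliferation marker, had 192, 244, 251 and 273 against 169, 134, 151 and 156, a log2 difference of 0.65 ± 0.12 (adjusted p = 0.00849) with no overlap. Bub1, a spindle checkpoint kinase, was at 0.68 ± 0.13, the spindle motor Kif11 at 0.70 ± 0.15 and the kinase Aurkb at 0.64 ± 0.14. Summed over the 21 genes, the mitosis CPM was 684 in KO replicate 1 and 895 to 1010.0 in the other three labelled KO, and 571 to 644 in the controls.

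**Figure D5:**
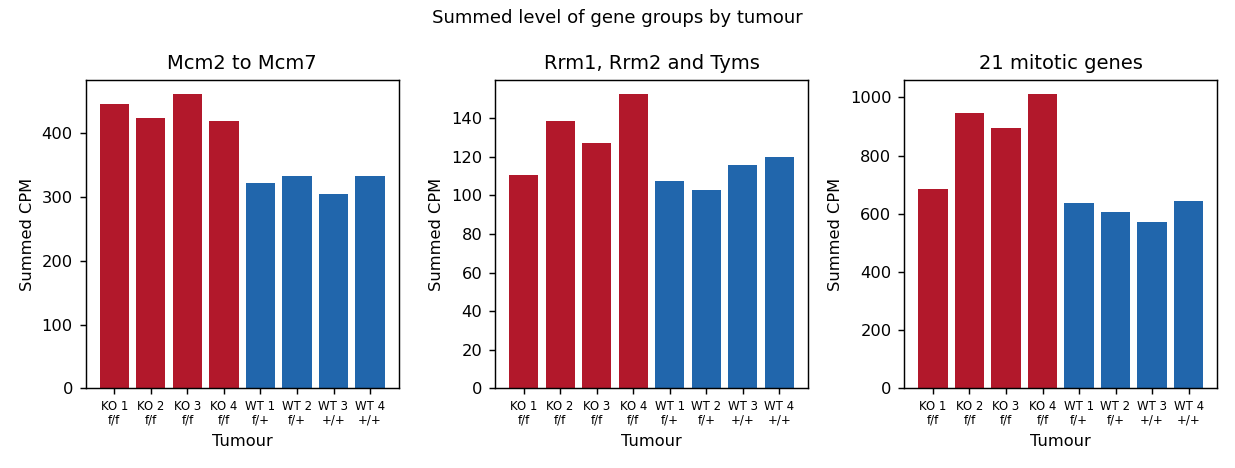
Summed TMM-scaled CPM of the 6 MCM genes, the 3 nucleotide supply genes and the 21 mitosis genes in each tumour (bars, red for tumours labelled KO and blue for those labelled WT, with the Lifr genotype). The MCM sums of the tumours labelled KO are all above those labelled WT, and KO replicate 1 is the lowest of its group for nucleotide supply and for mitosis.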

How the data were processed

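The deposited table of counts holds reads per gene over exons for each tumour, made by the authors with HOMER's analyzeRepeats program on mm10 with 1 kept transcript per gene, counting 1 strand, per the file headers. The same program gave the FPKM table that the authors deposited. FastQC 0.11.2, STAR 2.4.0k, HOMER and edgeR 3.6.8 are named in the submitters' processing notes. The library kit and its strandedness are not given in the sources used here.

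From the counts, genes were filtered (filterByExpr, minimum count 10, minimum total 15), scaled by TMM and tested in R 4.3.3 with edgeR 4.0.16 (quasi-likelihood test) over all 8 tumours without covariates, with Benjamini-Hochberg adjustment over 14728 genes and a threshold of 0.05. Log2 differences are labelled KO minus labelled WT, with SE and 95% intervals. A second fit held the 3 Lifr genotypes apart (15284 genes). DESeq2 1.42.0 and limma 3.58.1 were run as alternatives, the latter also on log2(FPKM + 1) and log2(FPKM + 0.1) for genes with a mean FPKM of at least 1. The edgeR step was tested on simulated data. Replicates were numbered in accession order. A further allele shared by all 8 mice is not reported here. The labels describe tumours dissected individually, and p-values measure the spread between them. All 28 pairs of libraries differed by more than sampling noise (chi-square per degree of freedom at least 26.2). Tables held 0 columns of other samples.

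The members, lists and alternatives were chosen with earlier results of these data known. Values are given in every tumour for Mcm2, Pcna, Rrm2 and, in each role, the genes of smallest and largest p. Other lists name up to 4 called genes of smallest p, or 2 where none was called, and Mki67, Lifr and Epcam. Mcm5 and Mcm6, outside this rule, and the MCM ratios were added after their values were seen. Genes sharing reads with near-identical copies, or overlapping genes, are uncertain. Promoters are from RefSeq, exons from GENCODE M21.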

Additional observations from a re-analysis of the deposited data

Results flagged for a closer look

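Each of the 82 sets of 4 tumours (41 genes in 2 groups) was searched for a tumour that stood apart, taken as a gap to the nearest other tumour, as a share of the set's range, above Dixon's critical value for 4 samples. Of the 82 sets 4 met this, where chance alone gives about 5 in 100. Gins3 had a CPM of 5.10 in WT replicate 1, against 3.99 to 4.10 in the other three tumours labelled WT. Pola1 had 29.8 in WT replicate 4, where the other three had 22.2 to 23.4, and this was the tumour nearest to the group labelled KO. Rfc3 had 19.3 in KO replicate 4, against 16.0 to 16.5. Rpa3 had 5.52 in WT replicate 1, the lowest of its group, against 8.07 to 8.48.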

How the results depend on the processing

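Of 816 values of single replication genes under other settings, 737 kept their direction and side of the threshold, or changed sign without being called on either side; 40 lost a call, 32 gained one and 7 changed sign and were then called. Those 7, all under scaling to the epithelial markers, which raised the median of all genes to 0.86, were Orc1 (0.77), Orc2 (0.79), Orc6 (0.70), Gins4 (0.74), Pole (0.69), Rfc3 (0.58) and Rpa3 (0.85); under it 10846 genes were called higher and 104 lower (10950 in all), 41 replication genes among the higher. The TMM calls were 3216 genes in all, 1630 higher and 1586 lower, and 10 and 0 replication genes. With library totals alone 900 genes were called higher and 3108 lower, with 4 and 1 replication genes. On FPKM, where 39 replication genes were tested, it was 895 higher and 2742 lower with a pseudocount of 1, and 895 and 2756 with 0.1, with 4 and 1 replication genes under both. Leaving out 1 tumour at a time gave 1755 to 3241 called genes, 918 to 1649 higher and 837 to 1592 lower, the fewest without KO replicate 2 and 2077 without WT replicate 3, and 6 to 11 replication genes higher and 0 lower. With only Lifrf/+ controls 1926 genes were called (1019 higher, 907 lower) and 6 replication genes; with only Lifr+/+ controls 1106 (514 and 592) and 3. These 2 settings have fewer samples. Without KO replicate 1 and WT replicate 2, each the highest of its group in acinar markers, 1892 were called (928 and 964), with 9 replication genes. DESeq2 called 4154 genes and 12 replication genes. Size factors from DESeq2's method, limma-voom, no filter and a minimum count of 30 each gave 10 and 0 replication genes. The median of the replication genes minus that of all genes was 0.18 to 0.27 over all settings. Between the control genotypes 0 replication genes were called under any setting run, beside 1 to 54 genes of the whole table. The cause of these changes was not tested, beyond the smaller samples named. No paired analysis was possible because replicate numbers follow accession order and the labels pair no tumours. Standard errors of the replication genes were 0.06 to 0.19, and the widest 95% interval reached 0.43 to either side. Smaller log2 differences could be missed there, and larger ones too, because calls were made after adjustment over all tested genes. Pole2 (0.51) and Cdc6 (0.47) were not called by edgeR with TMM scaling. The lowest count of a replication gene was 46.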

Other observations

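Other promoter words were counted in the same 34 replication genes and set beside all genes with a promoter in the table, with no test. CCAAT, the NF-Y box, was present on either strand in 23 of 34 (67.6%, against 41.1% of all genes and 42.4% of tested genes). The cell cycle homology region words TTTGAA and TTCGAA were in 7 of 34 (20.6%, against 21.7% and 16.5%). The GC box GGGCGG was in 25 of 34 (73.5%, against 38.2% and 65.9%), and GC boxes can overlap E2F words. Base composition was not matched in these shares. In a shorter window, from 150 bases before to 50 after the start, E2F words were present in 14 of 34 (41.2%, against 1.91% of all genes and 3.24% of tested genes). Of the 10 called replication genes 9 held CCAAT, and of the 24 not called 14 did.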
